A study of Saccharomyces cerevisiae with 4 samples.

Results

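A set of 5 genes of budding yeast that encode enzymes removing superoxide and hydrogen peroxide were compared between a parental strain and a derivative labelled as a deletion of YGP1. They were chosen by their locus names as the catalase genes CTT1 (YGR088W) and CTA1 (YDR256C), the superoxide dismutase genes SOD1 (YJR104C) and SOD2 (YHR008C) and the cytochrome c peroxidase gene CCP1 (YKR066C), and all 5 were among the 6484 features that the authors' table lists. RNA-seq libraries were made from total RNA of 2 biological replicates of each strain. The parent carries the genotype label BGL-6Kl. The other strain carries that genotype plus ΔYGP1, and YGP1 encodes a secreted glycoprotein. Both strains were grown untreated in YPD, a rich glucose medium, at 30 °C and 200 rpm for 48 h, a time that the series gives as the earliest with a clear strain difference in the activity it calls BGL. The labels do not say what BGL-6Kl carries or how the deletion was made.

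Superoxide, a by-product of respiration, is converted by superoxide dismutases to hydrogen peroxide and oxygen, and catalases and peroxidases then break down the peroxide. Ctt1 is the cytosolic catalase and is made under stress and in ageing cultures, while Cta1 is the catalase of peroxisomes and mitochondria. Sod1 is the copper and zinc dismutase of the cytosol and the intermembrane space, Sod2 the manganese dismutase of the mitochondrial matrix, and Ccp1 a haem peroxidase of the intermembrane space that takes electrons from cytochrome c. In a culture that has used up its glucose, cells respire ethanol, and these enzymes are known as part of that state.

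The label of the second strain was checked first. YGP1 had a mean normalised read count of 62470 in the parent and 18171 in the strain labelled as its deletion, 29.1% of the parental level (authors' deposited table, adjusted p = 2.88e-08), so its reads were lower but did not vanish. The second strain is therefore called the strain labelled YGP1 deletion below. The authors' table holds 1 mean per strain. For 6182 features the whole reads of every library could be recovered from these means, and A names the deeper library within each strain and B the shallower one, whatever their replicate numbers. The recovered reads of solved features summed to between 7418259 and 14987529 per library, and most of the most abundant features are not in these sums. The typical log2 gap between libraries of 1 strain, a median over 5265 features that had 50 or more reads in every library, was 0.18 in the parent and 0.28 in the strain labelled deletion. The series calls the replicates biological without saying how their cultures were kept apart, so the spread behind each p-value is that of these libraries and may in part be technical.

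The DNA before CTT1 is shown first because CTT1 was the gene of the set whose RNA differed most, and because the letters read by the stress regulators Msn2 and Msn4, CCCCT or its reverse complement AGGGG, are densest there. The 500 bases before each start codon were read from the RefSeq R64 genome by locus name, which need not be the sequence of these strains. The stretches below are written 5′ to 3′ on the strand of the gene, and capitals mark the match to CCCCT or AGGGG. They lie at chrVII:654246-654515 (plus strand) for CTT1, chrX:623187-623231 (minus strand) for SOD1, chrVIII:123707-123751 (minus strand) for SOD2 and chrXI:567322-567366 (minus strand) for CCP1.
CTT1: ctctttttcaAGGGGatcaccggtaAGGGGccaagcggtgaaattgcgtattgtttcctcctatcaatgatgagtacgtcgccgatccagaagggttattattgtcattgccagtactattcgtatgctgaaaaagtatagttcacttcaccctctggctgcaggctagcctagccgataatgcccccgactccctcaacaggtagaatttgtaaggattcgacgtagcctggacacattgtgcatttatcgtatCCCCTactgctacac
SOD1: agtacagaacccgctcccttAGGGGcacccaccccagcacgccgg
SOD2: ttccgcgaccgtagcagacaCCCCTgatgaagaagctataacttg
CCP1: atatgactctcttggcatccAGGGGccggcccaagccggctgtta
CTT1 had 3 matches, starting 378, 363 and 133 bases before the start codon. SOD1, SOD2 and CCP1 had 1 match each, starting 197, 141 and 148 bases before theirs, and CTA1 had 0. On either strand, 2047 of 6006 windows of this length (34.1%) held at least 1 match and 110 (1.83%) held at least 3.

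The other motifs searched, again on both strands, were the site TTACTAA or TTAGTAA of Yap1, the regulator of the peroxide response, and CCAAT, the site of the Hap2/3/4/5 complex that drives respiratory genes. CTA1, SOD1 and SOD2 held 1 Yap1 match each and CTT1 and CCP1 held 0, against 11.8% of all windows with at least 1. CCAAT or ATTGG was found once before CTT1 and CTA1, in 2 places before SOD2, in 3 before CCP1 and in 4 before SOD1. At least 1 was present in 62.4% of windows and at least 4 in 2.03%. None of the matches of different motifs overlapped in these 5 windows (0 overlaps). A match shows letters in the reference sequence and does not show that a factor binds there.

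**Figure D1:**
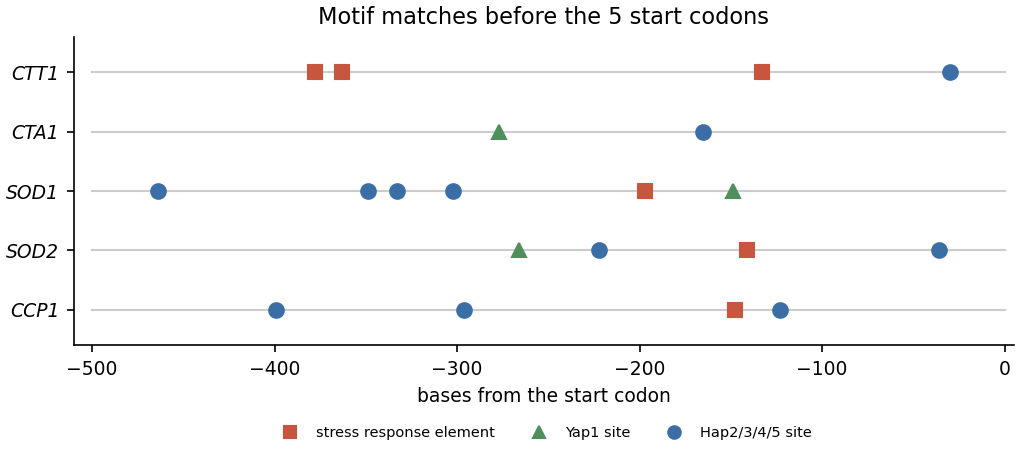
Position of each motif match, in bases from the start codon, in the 500 bases before the 5 genes (squares, CCCCT or AGGGG; triangles, Yap1 site; circles, CCAAT or ATTGG, on either strand). CTT1 holds 3 of the 6 squares, CTA1 holds 0, and SOD1 holds 4 circles.

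CTT1 fell about 10-fold in the strain labelled YGP1 deletion, and none of the other 4 genes passed the authors' test. CTT1 had a mean of 101249 normalised reads in the parent and 10108 in the strain labelled deletion. In that strain libraries A and B held 10864 and 9352. In the parent 51 pairs of whole reads give the deposited mean, so the values of its libraries are not known singly. In 16 of these pairs the libraries lie less than 2-fold apart, and there the parental values ran from 68074 to 134424, above both libraries of the strain labelled deletion. Of all 51 pairs, 45 put both parental libraries above, and 6 leave an overlap because 1 parental library would have had to be very low. Such separation of the strains was common: of the 5265 features described above, 70.1% were separated in either direction and 34.4% upward. Among these 5265 features, 1.0% in the parent and 3.1% in the strain labelled deletion were at least 2-fold apart between libraries. CTT1 is not among them, because its parental pair is not settled, so these shares need not hold for it. The level of CTT1 was 9.98% of the parental one (log2 fold change -3.32, authors' deposited table, adjusted p = 2.30e-06).

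By its mean CTT1 ranked 24 among all features of the parent and 355 in the strain labelled deletion. Of the 6484 features 14 had a lower log2 fold change in the authors' deposited table. Among the 24 features with a parental mean of at least 100000, 11 were called lower and 0 had a lower log2 fold change than CTT1. Among the 195 with a parental mean of at least 20000, 69 were called lower and 2 had a lower log2 fold change. Both sets were picked by the parental mean alone, where CTT1 is itself high, so they lean toward features lower in the other strain. CTT1, at rank 24, is the last of the smaller set. Its place in these sets is a description and no separate support. The authors called 20.0% of all features changed, 9.65% higher and 10.3% lower, so 1 call among 5 genes is a share close to that background. With limma on the recovered libraries, using the parental pair closest together, the log2 fold change of CTT1 was -3.33 ± 0.24 (SE, adjusted p = 5.19e-05). That fit used an intensity trend. In limma without the trend CTT1 passed less clearly (adjusted p = 0.0257). Over the 16 pairs less than 2-fold apart the limma adjusted p ran from 5.19e-05 to 0.000215. Over all 51 pairs, limma called CTT1 in 42, with log2 fold changes from -3.33 to 0.88 and adjusted p up to 0.801. Because these are whole cultures, fewer cells that make a transcript and less of it per cell cannot be told apart.

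CTA1, the other catalase gene, did not pass the test. Its mean was 45877 in the parent and 50345 in the strain labelled deletion. The pair of libraries less than 2-fold apart, 1 of 3 pairs that fit in the parent and 1 of 4 in the strain labelled deletion, gives 51014 and 40739 against 54350 and 46341. The libraries of the strains overlapped (log2 fold change 0.13, authors' deposited table, adjusted p = 0.795).

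SOD2, the mitochondrial dismutase gene, did not pass either. Its parental libraries held 31890 and 27356 normalised reads. In the strain labelled deletion 2 pairs fit, and the pair less than 2-fold apart gives 28586 and 23664. The ranges overlapped under either pair, and the mean was 88.2% of the parental one (log2 fold change -0.18, authors' deposited table, adjusted p = 0.749).

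SOD1 was higher in both libraries of the strain labelled deletion than in either parental library, but it did not pass the test. It had 6009 and 4661 normalised reads in the parent and 8029 and 7255 in the strain labelled deletion, each the only solution. Its mean was 1.43 times the parental one (log2 fold change 0.52, authors' deposited table, adjusted p = 0.185). Libraries that do not overlap were common, with 70.1% of 5265 features separated in this way and 34.4% separated upward.

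CCP1 had the highest fold change of the 5 genes. Its parental libraries held 9642 and 7929 normalised reads. In the strain labelled deletion 2 pairs fit, and the pair less than 2-fold apart gives 13756 and 14394, above both parental values. The other pair would give 28084 and 65.3 and then overlaps. As given for SOD1, 34.4% of 5265 features were separated upward in this way. CCP1 is not among them, because its pair in the strain labelled deletion is not settled, so this share need not hold for it. The mean was 1.60 times the parental one, and CCP1 missed the threshold (log2 fold change 0.68, authors' deposited table, adjusted p = 0.0697). In limma with an intensity trend it passed at an adjusted p of 0.0393, where 28.8% of features were called and 13.9% were called higher. It did not pass in limma without the trend (adjusted p = 0.0875, 12.4% of features called) or when any single library was left out (limma adjusted p from 0.0794 to 0.442).

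**Figure D2:**
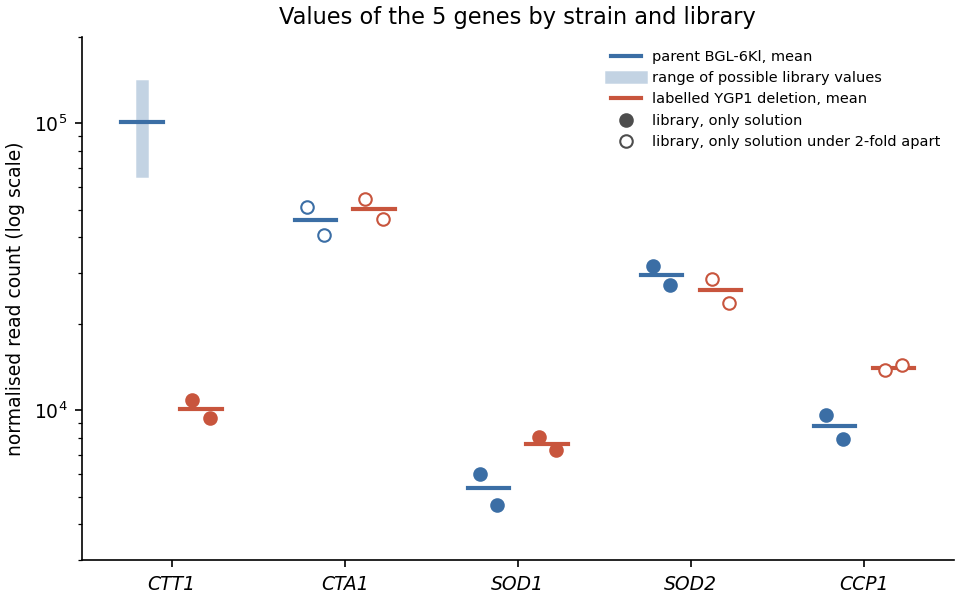
Normalised read count (log scale) of the 5 genes in the parent (blue) and the strain labelled YGP1 deletion (red). Lines are the authors' means, filled points are libraries with 1 solution, open points are the pair less than 2-fold apart, and the shaded bar is the range of 68074 to 134424 that the parental CTT1 libraries can take under the 16 pairs less than 2-fold apart. CTT1 is the gene with a wide gap between the strains.

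Divided by coding length, the order of the means differed between the strains only by the place of CTT1. In the parent the mean per kilobase of coding length was 59946 for CTT1, 42199 for SOD2, 29636 for CTA1, 11472 for SOD1 and 8090 for CCP1. Within library A the order of CTT1 and SOD2 is undecided, since the ratio of CTT1 to SOD2 per kilobase runs from 0.958 to 1.75 under the 16 pairs less than 2-fold apart, while within library B it runs from 1.03 to 1.96, above 1 under each of them. The ranges of SOD2, CTA1, SOD1 and CCP1 did not overlap each other in the parent.

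In the strain labelled deletion the mean per kilobase was 37215 for SOD2, 32523 for CTA1, 16435 for SOD1, 12960 for CCP1 and 5985 for CTT1. CTT1 thus moved from first to last by its mean. SOD2 and CTA1 overlapped in that strain, with 40720 and 33710 per kilobase in libraries A and B for SOD2 and 35110 and 29936 for CTA1, while the other neighbours in the order did not overlap. The library values of CTA1, SOD2 and CCP1 in this strain are again those of the pair less than 2-fold apart.

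**Figure D3:**
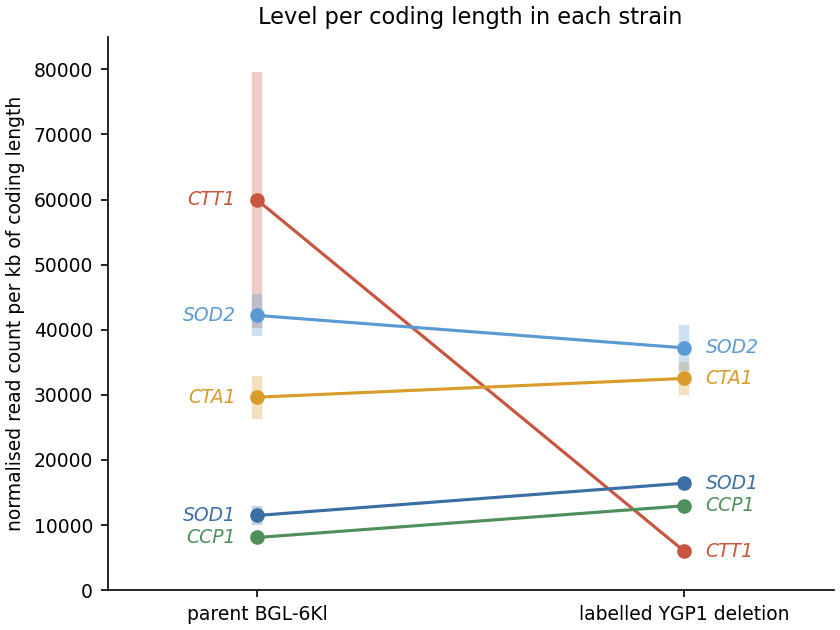
Mean normalised read count per kilobase of coding length in each strain, joined by gene. Shaded bars span the library values under pairs less than 2-fold apart. The line of CTT1 falls from 59946 to 5985 and crosses the lines of the other 4 genes.

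The ratios between isoenzymes are given as a description, with no test. Per kilobase, the ratio of the CTT1 to the CTA1 mean was 2.02 in the parent and 0.184 in the strain labelled deletion. Under the pairs less than 2-fold apart it lay between 1.32 and 2.90 in single parental libraries. Under such pairs it was 0.183 and 0.185 in libraries A and B of the strain labelled deletion. Cytosolic CTT1 was 66.9% of the summed catalase level per kilobase in the parent and 15.5% in the strain labelled deletion, and the sum itself was 43.0% of the parental one (89582 and 38507).

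The ratio of SOD2 to SOD1 per kilobase was 3.52 and 3.89 in parental libraries A and B, against 2.36 and 2.16 in the strain labelled deletion. The last 2 values use the SOD2 pair less than 2-fold apart, 1 of 2 that fit, and would differ under the other pair. The sum of both dismutases per kilobase was 53671 and 53650, so the sum hardly differed between the strains. Together the 4 genes other than CTT1 summed to 91396 per kilobase in the parent and 99133 in the strain labelled deletion. The ratio of CTT1 to CCP1, both of which break down peroxide, was 7.41 from the parental means per kilobase and 0.462 from those of the strain labelled deletion.

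**Figure D4:**
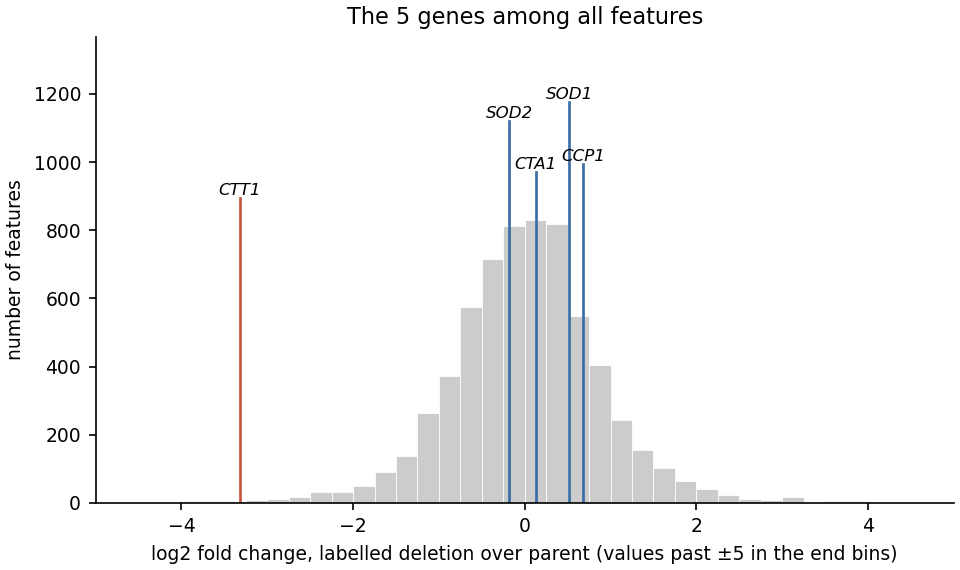
Number of features by log2 fold change of the strain labelled YGP1 deletion over the parent (grey bars, 6408 features with a parental mean above 0), with the 5 genes marked by lines whose height has no meaning (red, adjusted p below 0.05; blue, did not pass). CTT1 lies at -3.32 in the left tail, and the other 4 genes lie between -0.18 and 0.68.

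Genes that act beside these enzymes were counted in 8 lists of 86 genes, of which 84 are among the listed features. Over all 84, 15 were called higher and 13 lower (33.3%, with 20.0% of all features called), and the median log2 fold change was -0.01 against 0.02 over all features with a parental mean above 0. Calls and fold changes in the next paragraphs are from the authors' deposited table, and library values are recovered ones.

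Among 11 peroxiredoxin and thioredoxin genes, which remove peroxide through reactive cysteines, 2 rose and 3 fell (45.5% called, median log2 fold change -0.26). AHP1, a peroxiredoxin for alkyl peroxides, had parental libraries of 6851 and 4816 and means of 5834 and 32255, 5.53-fold higher (authors' deposited table, adjusted p = 1.24e-11). TSA2, a cytosolic peroxiredoxin, had 733 and 522 in the parent and 2436 and 1929 in the strain labelled deletion, 3.48-fold higher (authors' deposited table, adjusted p = 9.33e-08). SRX1, the sulfiredoxin that repairs oxidised peroxiredoxins, had 857 and 671 against 223 and 299, 2.93-fold lower (authors' deposited table, adjusted p = 2.25e-05). The mitochondrial peroxiredoxin PRX1 and the thioredoxin TRX1 were 1.88-fold and 1.92-fold lower (authors' deposited table, adjusted p = 0.00708 and 0.0123). In the glutathione system 1 of 10 genes rose and 0 fell, a smaller share than the 20.0% of all features called. That gene was GSH2, glutathione synthetase, with 838 and 669 against 1657 and 1339 (log2 fold change 0.99, authors' deposited table, adjusted p = 0.00600).

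The dismutases need metals and the catalases and Ccp1 need haem. Of 9 listed genes of copper and manganese supply, 1 rose and 1 fell (22.2% called, with 20.0% of all features called). MTM1, a mitochondrial carrier that Sod2 needs to obtain manganese, had 978 and 889 in the parent and 1962 and 1618 in the strain labelled deletion (1.92-fold higher, authors' deposited table, adjusted p = 0.00847). CTR3, a copper transporter, had 19432 and 25136 against 9769 and 7422 (2.59-fold lower, authors' deposited table, adjusted p = 0.000196). CCS1, the copper chaperone of Sod1, had a log2 fold change of -0.58 and did not pass (authors' deposited table, adjusted p = 0.179). Of 8 haem synthesis genes 1 rose and 0 fell (12.5% called). That gene, HEM13, the oxygen-dependent coproporphyrinogen oxidase, had 371 and 285 against 898 and 665 (2.38-fold higher, authors' deposited table, adjusted p = 0.00180).

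Among 7 genes of cytochrome c partners and Ccp1 processing 2 rose and 1 fell (42.9% called, with 20.0% of all features called). CYC7, the minor isoform of cytochrome c, had 2150 and 1294 in the parent and 7175 and 6692 in the strain labelled deletion (4.03-fold higher, authors' deposited table, adjusted p = 6.67e-10). The major isoform CYC1 had a log2 fold change of 0.29 and did not pass (authors' deposited table, adjusted p = 0.517). CYC3, which attaches haem to cytochrome c, was 1.71-fold higher, and CYB2, the lactate dehydrogenase that passes electrons to it, was 2.30-fold lower (authors' deposited table, adjusted p = 0.0299 and 0.000617). Of 8 genes of peroxisomal oxidation and import, PEX13, part of the import machinery, rose 2.03-fold and ECI1, an enoyl-CoA isomerase, fell 2.20-fold (authors' deposited table, adjusted p = 0.00481 and 0.0104). No other gene of that list was called, and its share called was slightly above the 20.0% of all features. POX1, the oxidase whose peroxide Cta1 removes, had a log2 fold change of -0.53 and did not pass (authors' deposited table, adjusted p = 0.217).

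Of 16 regulator genes 2 fell and 0 rose, so 12.5% were called, with 20.0% of all features called. MSN2, which activates CTT1 through the CCCCT element, had 3685 and 4018 in the parent and 1839 and 1458 in the strain labelled deletion (2.34-fold lower, authors' deposited table, adjusted p = 0.000520). YBP1, which acts with Yap1 in sensing peroxide, had 1182 and 1321 against 615 and 434 (2.39-fold lower, authors' deposited table, adjusted p = 0.000994). MSN4, which encodes the partner of Msn2, had a log2 fold change of -0.69 and YAP1 one of 0.03, and neither passed (authors' deposited table, adjusted p = 0.418 and 0.994).

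Other stress genes known to respond to Msn2 and Msn4 changed in both directions: 7 of 15 rose, 5 fell and 3 did not pass. The share called was the largest of the 8 lists and far above the 20.0% of all features called. DDR48, a stress-induced gene, had 662 and 1053 in the parent and 151 and 153 in the strain labelled deletion (5.64-fold lower, authors' deposited table, adjusted p = 0.000756). GPD1, of glycerol synthesis, was 4.10-fold and the aldehyde dehydrogenase ALD3 3.33-fold lower (authors' deposited table, adjusted p = 5.40e-10 and 1.26e-05). In the other direction the Hsp70 chaperones SSA4 and SSA3 were 3.45-fold and 2.25-fold higher and the aldose reductase GRE3 2.69-fold higher (authors' deposited table, adjusted p = 5.75e-05, 0.000660 and 7.21e-06). SSA3 and SSA4 are related in sequence, and how shared reads were assigned is not given in the sources used here.

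**Figure D5:**
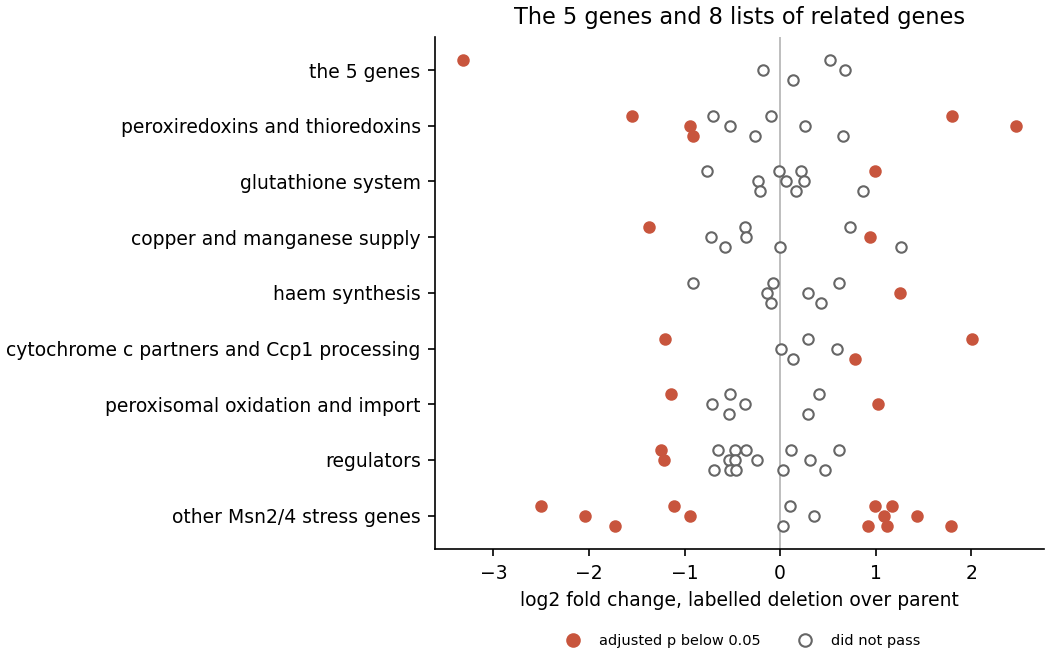
Log2 fold change of the strain labelled YGP1 deletion over the parent for the 5 genes and for 84 genes in 8 lists, 1 point a gene (red, adjusted p below 0.05; open, did not pass). CTT1 lies at -3.32, lower than any gene of the 8 lists, whose values run from -2.50 to 2.47.

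The profiles of CTA1, SOD1, SOD2 and CCP1 over the 4 libraries were set beside those of other features by the Euclidean distance. It was taken between log2 values centred on their own mean. The features compared (5268, or 5267 for SOD1) had 1 fitting pair in each strain and at least 50 normalised reads in every library. Most of the most abundant features are therefore left out. The 3 closest features were YOR387C, AMD2 and PGM1 for CTA1, at distances of 0.038 to 0.059. For SOD1 they were SEC14, OPT2 and GRS2 (0.040 to 0.061), for SOD2 POM152, HRI1 and NUP84 (0.035 to 0.043), and for CCP1 LCL3, SWT1 and APA1 (0.053 to 0.067). None of these 12 features was called changed by the authors (adjusted p from 0.127 to 0.856). They were picked for profiles close to those of genes that were not called, so this is no separate result. Within a distance of 0.2 there were 156 features for CTA1, 122 for SOD1, 163 for SOD2 and 119 for CCP1, so 4 libraries do not single out a few. The profile of CTA1 in both strains and those of SOD2 and CCP1 in the strain labelled deletion rest on the 1 fitting pair less than 2-fold apart, and the profile of SOD1 on the only solution. CTT1 was left out because 16 such pairs fit its parental mean.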

How the data were processed

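Total RNA was extracted with TRIzol and sequenced after standard Illumina library preparation, per the labels' protocols. Aligner, counter, build, annotation and strandedness: not given in the sources used here. The authors deposited, per feature and strain, a mean signal (read counts divided by a size factor per library, as the values show), a log2 fold change that lies within 5e-05 of the ratio of these means on the log2 scale, and a p-value with its adjusted form. These adjusted p-values, below 0.05 for a call, are the main result, as the design set for a table of strain means.

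Whole reads of both libraries were recovered where 1 pair fitted a mean to within 0.55 units of its last digit (98.2% of features in the parent, 95.6% in the strain labelled deletion, where 1 feature had no fitting pair). The size factors found were 1.155 and 0.9636 in the parent (A, B) and 1.125 and 0.7968 in the strain labelled deletion (A, B). For genes with several fitting pairs the pair closest together was used, which makes the spread between libraries as small as it can be. limma 3.58.1 in R 4.3.3 (log2 of the value + 1, mean of at least 1, intensity trend, 2-sided, Benjamini-Hochberg over 6118 features) was an alternative on these libraries, and the steps were tested on simulated data.

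Of 6484 features 5869 matched R64 locus names. R64 gave coding lengths and promoter windows. In R64 none of the 5 genes overlaps another annotated gene (0 each) or has another genome match of at least 100 bases at 80% identity or more (0 each, BLAST 2.17.0). CUP1-1 and CUP1-2 are not analysed here. The genes, lists and tests were chosen with earlier results of these data known. Of each list the called genes with the largest rises and falls were named, up to 3 each way, with every called regulator; MSN4, YAP1, CCS1, CYC1 and POX1 were added after their values were seen.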

Additional observations from a re-analysis of the deposited data

How the results depend on the processing

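The scaling was changed to a median log2 ratio of 0 or to equal sums over all features, and a pseudocount of 1 or 10 was tried. Each gene's log2 fold change shifted by less than the spread between libraries (0.23 on the log2 scale). This had to be so, because the means are far above 10 and each scaling adds 1 small constant to every feature. It is therefore no test of the differences. Equal sums shift every feature by 0.15, which brings SOD2 to -0.03. CTT1 stayed the only gene called at an adjusted p below 0.01 or with at least 2-fold required. In limma with the trend, with no filter and with a mean of at least 10, 2 genes were called, because CCP1 passed at a log2 fold change of 0.69 (adjusted p = 0.0393, 0.0431 and 0.0333); without the trend 1 was called. With the pair farthest apart, an alternative added after the data were seen, 0 genes were called in limma (1, SOD1, at an unadjusted p below 0.05), and CTT1, CTA1 and CCP1 turned to 0.88, -0.41 and -2.68, because the mean of the logs of 2 distant values lies far below the log of their mean. With each library left out in turn and the closest pairs kept, the limma log2 fold change of CTT1 ran from -3.44 to -3.22. The parental CTT1 pair used there lies 1.02-fold apart, so leaving out either parental library had to give nearly the same value. Other CTT1 pairs were not tried in this way. The log2 fold changes of the other genes ran from -0.02 to 0.30 for CTA1 and from 0.35 to 0.71 for SOD1. They ran from -0.32 to -0.05 for SOD2 and from 0.55 to 0.83 for CCP1, and CTA1 turned without parental library B. The lone library of a strain is there assumed to vary like the others. No paired analysis was possible because the table gives strain means and the recovered libraries carry no replicate numbers.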
